A study of Mus musculus with 4 samples.

Results

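The Tribbles genes (*Trib1*, *Trib2* and *Trib3*) and the C/EBP genes (*Cebpa*, *Cebpb*, *Cebpd*, *Cebpe* and *Cebpg*) were followed in LSK cells that lacked functional Meis1, a homeodomain transcription factor. These families were selected on the *Trib2* signal of these same arrays, already known to be low in Meis1-deficient cells, and their members were found as the non-control probes that carry one of the 8 gene names. This gave 13 of 41174 probes and 7 of 28095 gene names, since no probe carried the name *Cebpe*. LSK cells, bone marrow cells without lineage markers that carry Sca-1 and c-Kit, include HSCs and early progenitors. Each array held RNA from a pool of 6 mice, with 2 pools of Mx1-Cre+ Meis1 fl/fl mice and 2 pools of Meis1 fl/fl mice, which carry the floxed allele without Cre. The mice were C57BL/6J, 4 to 8 weeks old, and the cells were collected 1 week after poly(I:C), given as 4 intraperitoneal doses of 1.5 μg/g at intervals of 1 day. The sample labels and the mouse methods give poly(I:C) to both genotypes, whereas the array methods and the deposited design text call the controls sham-treated, so treatment and genotype cannot be told apart if the latter holds. Mx1-Cre is driven by an interferon-responsive promoter and is not limited to LSK cells, and the floxed part is exon 8, which encodes the homeodomain.

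Tribbles proteins are pseudokinases, which keep the fold of a kinase but act mainly as adaptors. Trib1 and Trib2 hold a substrate with one surface and the ubiquitin ligase COP1 with another, and the best known substrate is C/EBPα, which is then degraded. Trib2 is known for driving acute myeloid leukemia in mice, and Trib3 as a stress gene switched on by ATF4 and CHOP. The C/EBP factors bind DNA as leucine zipper dimers, and C/EBPα is required for the step from early progenitors to the granulocyte lineage.

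*Trib2* RNA was detected in control LSK cells and was not well above background on either Meis1-deficient array. The *Trib2* message is read by a pair of probes on the minus strand of chromosome 12 (mm9), A_52_P220810 at 15799009 to 15799068 and A_51_P103819 at 15800004 to 15800061, with starts 995 bases apart. The first of them lies nearer the 3′ end. Their first 30 of 60 bases, as the array files give them, are shown because the low *Trib2* signal rests on both.
Trib2 A_52_P220810: actctggcttttctattgctgtatgataca
Trib2 A_51_P103819: agccttggcattgcactgttagcatttaac

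At A_52_P220810, the processed signal (background-subtracted intensity, not scaled between arrays) was 6.14 and 8.81 on the Meis1-deficient arrays against 36.8 and 50.9 on the controls. At A_51_P103819, it was 5.21 and 2.30 on the Meis1-deficient arrays against 37.0 and 107 on the controls. Both control signals were above both Meis1-deficient signals at each probe, and on each slide the Meis1-deficient signal was 0.167 and 0.173 of the control signal at the first probe and 0.141 and 0.0214 at the second. The lowest signal called well above background was 8.05 and 9.496 on the Meis1-deficient arrays, above the *Trib2* signals there. The size of the difference therefore has only a lower bound, taken with the higher of the array's lowest well-above-background signal and the probe's own signal on each Meis1-deficient array. The bound is approximate, since the flag is given for each spot. On the second Meis1-deficient array, a *Cebpa* spot (A_51_P214087) with a signal of 10.0 was not called well above background.

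**Figure D1:**
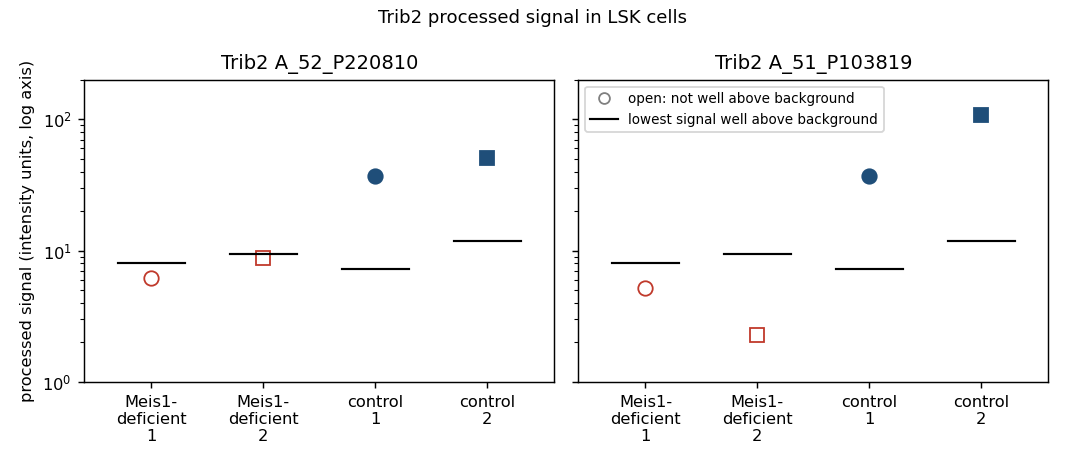
Processed signal (intensity units, log axis) of the *Trib2* probes on each of the 4 arrays, with open symbols where the spot was not well above background and a black line at the lowest well-above-background signal of that array. All Meis1-deficient points are open and below their line, whereas the control points run from 36.8 to 107.

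After each array was scaled to its 75th percentile, the approximate lower bound on the fall of *Trib2* in Meis1-deficient LSK cells was 3.81-fold at A_52_P220810 and 5.54-fold at A_51_P103819. On slide 1 alone these bounds were 4.63-fold and 4.65-fold, and on slide 2 alone they were 3.14-fold and 6.60-fold. Left-out arrays moved the bound at A_51_P103819 from 5.54 to 9.20 without control replicate 1 and to 3.34 without control replicate 2. At A_52_P220810 they moved it from 3.81 to 2.74 without Meis1-deficient replicate 1 and to 5.31 without Meis1-deficient replicate 2. The measured log2 difference (Meis1-deficient minus control, n = 2 arrays each) was -2.18 at A_52_P220810 and -3.81 at A_51_P103819. These values are given as a description with no test, since they are what drew attention to the family. Both probes passed the filter for testing only through the control arrays. After another background correction (normexp), which adds an offset of 50 to every signal and so draws dim probes together, the differences were -0.057 and -0.63.

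*Trib1*, the close relative of *Trib2* that also brings C/EBPα to COP1, was well above background on all 4 arrays at its single probe (A_52_P573552, chromosome 15, 59487662 to 59487721). Its log2 value, relative to the array's 75th percentile as in all log2 values that follow, was 1.64 and 0.72 in Meis1-deficient cells against 2.04 and 0.97 in controls. The genotypes overlapped, and on each slide the Meis1-deficient value was the lower. The genotypes differed by -0.33 (SE, the standard error, 0.58, limma adjusted p = 0.983), with -0.40 on slide 1 and -0.25 on slide 2. *Trib3* was near the limit of detection. Its probe A_51_P331570 (chromosome 2, 152163355 to 152163414) was well above background on slide 1 and not on slide 2 in both genotypes, with signals of 17.1 and 6.83 in Meis1-deficient cells against 15.7 and 10.8 in controls. Its other probe, A_52_P600274 (152164025 to 152164084), was not well above background on any of the 4 arrays, with signals from 1.57 to 7.88, so *Trib3* was not tested.

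*Cebpa* encodes C/EBPα, the protein that Trib1 and Trib2 mark for degradation. Its probe A_52_P168567 (chromosome 7, 35906517 to 35906576) had log2 levels of 1.48 and 1.80 in Meis1-deficient cells against 1.53 and 1.13 in controls. Mean values were 1.64 ± 0.22 (SD, n = 2 arrays) and 1.33 ± 0.28 (SD, n = 2), and the first control array lay between the Meis1-deficient ones. The difference of 0.31 was below its SE of 0.44 (limma adjusted p = 0.983), and it was -0.050 on slide 1 and 0.67 on slide 2. A second probe, A_51_P214087, lies 1156 bases upstream (35905361 to 35905420) and was rarely detected. Its signal was 2.05 and 10.0 in Meis1-deficient cells against 6.34 and 69.3 in controls, and it was well above background on the second control array alone, so it was not tested. No difference is read from it.

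**Figure D2:**
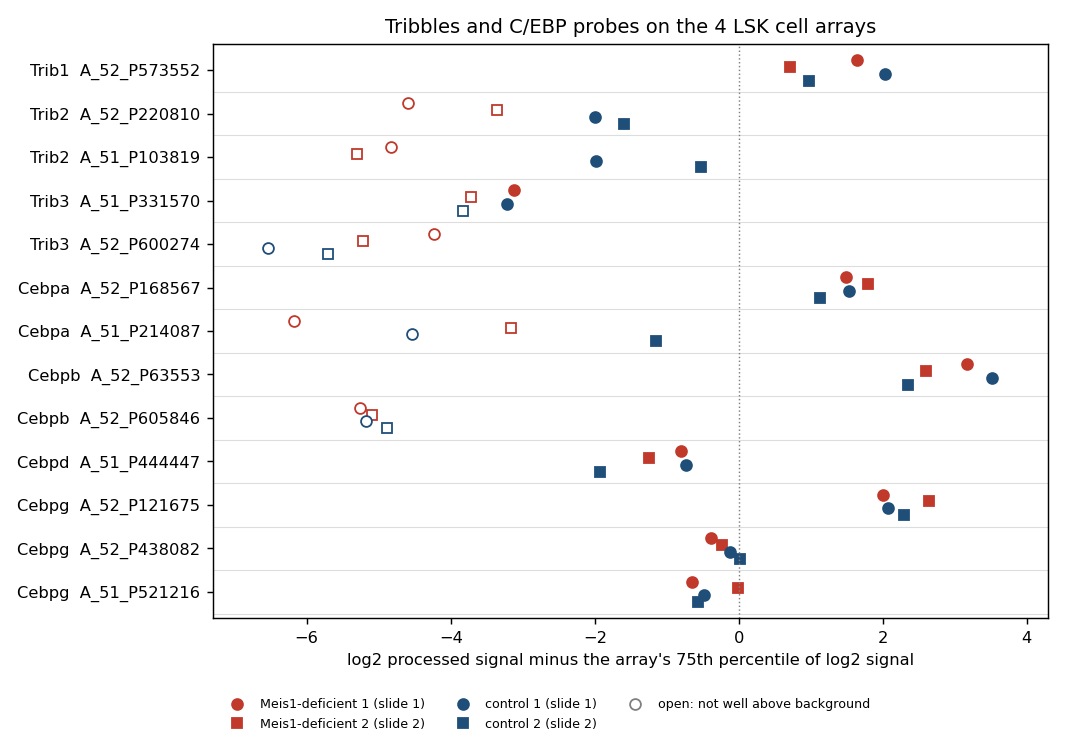
Log2 processed signal minus the 75th percentile of the array (x axis) for the 13 Tribbles and C/EBP probes on the 4 arrays, colored by genotype, shaped by slide and open where not well above background. The genotypes are apart at both *Trib2* probes and overlap at *Trib1* and at the probes of *Cebpa*, *Cebpb* and *Cebpd* that were tested.

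Within *Cebpa* and *Cebpb*, the dim and the detected probe differed in base composition. The first 30 bases of both *Cebpa* probes and both *Cebpb* probes are shown for that reason.
Cebpa A_52_P168567: ttttgttttggttttgctctgattcttgcc
Cebpa A_51_P214087: cgtggagacgcaacagaaggtgctggagtt
Cebpb A_52_P63553: gagaaccttttccgtttcgagcattaaagt
Cebpb A_52_P605846: ggctgcagaagaaggtggagcagctgtcgc
Over its 60 bases, the GC content of *Cebpa* A_51_P214087 was 60%, against 45% for A_52_P168567, and that of *Cebpb* A_52_P605846 was 60%, against 33.3% for A_52_P63553. A GC content of 60% was above that of 99.2% of all probes, whose median was 40%. The undetected *Trib3* probe had 55% and the other *Trib3* probe 45%. In *Trib3*, *Cebpa* and *Cebpb* alike, the probe with more GC lay farther from the 3′ end and was well above background on fewer arrays. The *Cebpg* probe farthest from the 3′ end had 35% GC and was well above background on all 4 arrays. The part of GC content and position in detection was not tested.

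*Cebpb* encodes C/EBPβ, which is known for granulocyte production under stress. At A_52_P63553 (chromosome 2, 167515847 to 167515905), its log2 value was 3.17 and 2.61 in Meis1-deficient cells against 3.51 and 2.35 in controls. The control values enclosed the Meis1-deficient values, and the difference of -0.045 was small beside its SE of 0.56 (limma adjusted p = 0.995). The other *Cebpb* probe, A_52_P605846 (167515309 to 167515368), was not well above background on any array. *Cebpd* encodes C/EBPδ, a factor induced in inflammation. At A_51_P444447 (chromosome 16, 15888459 to 15888518), its log2 value was -0.80 and -1.25 in Meis1-deficient cells against -0.73 and -1.93 in controls, so that the controls again enclosed the Meis1-deficient values. The difference was 0.31 (SE 0.55, limma adjusted p = 0.983).

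*Cebpg* encodes C/EBPγ, which has a leucine zipper but no known activation domain and acts as a dimer partner of the other members. It was read by 3 probes on chromosome 7, well above background on all 4 arrays. At A_52_P121675 (35832751 to 35832810), the log2 values were 2.01 and 2.64 in Meis1-deficient cells against 2.07 and 2.30 in controls. At A_51_P521216 (35831917 to 35831976), they were -0.64 and -0.015 in Meis1-deficient cells against -0.49 and -0.57 in controls. At A_52_P438082 (35835477 to 35835536), they were -0.39 and -0.23 in Meis1-deficient cells against -0.13 and 0.010 in controls. The last probe alone kept the genotypes apart, with a difference of -0.25 (SE 0.42, limma adjusted p = 0.983), while the other *Cebpg* probes gave 0.14 and 0.20. The 3 probes of *Cebpg* thus did not share a direction.

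Of the 13 probes, 9 were tested and 4 were too dim. By the criteria of the array methods, an unadjusted p under 0.01 and over 2-fold, 2 of the 9 were called, both of *Trib2*, and 0.736% of all 22007 tested probes were called. Because low *Trib2* led to the choice of these families, nothing is read from that count. With the slide as a replicate block the same 2 probes were called, against 1.99% of all tested probes. For the other 7 tested probes, none was called in either fit. Their differences ran from -0.33 to 0.31, standard errors were 0.42 to 0.58 and unadjusted p-values were 0.511 to 0.938 by limma, or at least 0.503 with the block. This does not show that the genes were unchanged, since with 2 arrays a genotype each standard error was larger than the difference it belongs to. At 5 of the 7 the difference had opposite signs on the slides. Without scaling between arrays, all 7 had a lower signal in Meis1-deficient cells on both slides, with ratios of 0.767 to 0.977 on slide 1 and 0.491 to 0.936 on slide 2, whereas after scaling 4 were higher and 3 lower. The median of all tested probes was then -0.30 in place of 0.082, so no direction is given for the C/EBP genes.

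**Figure D3:**
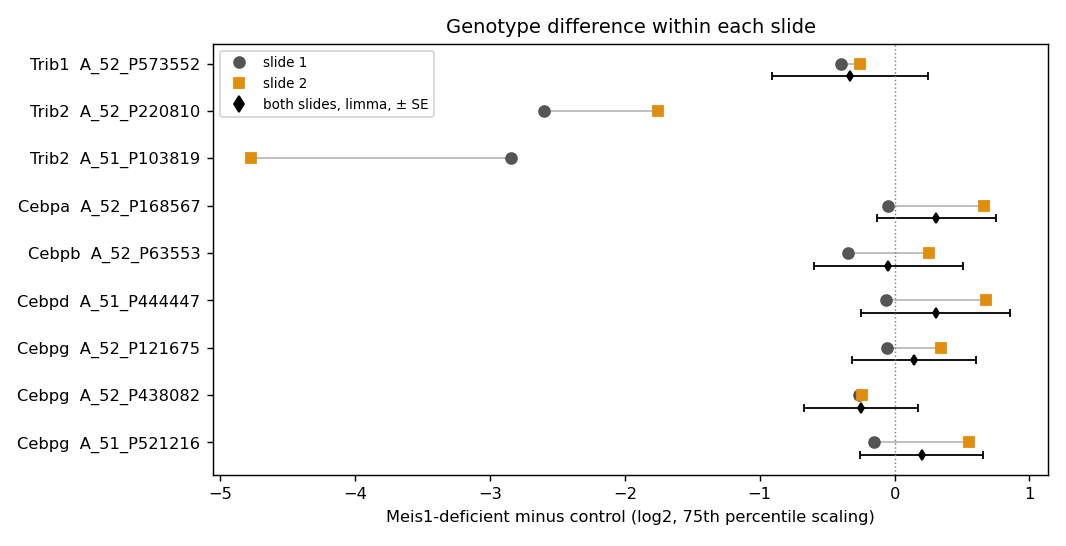
Meis1-deficient minus control on the log2 scale (x axis) for the 9 tested probes, within slide 1 (circles) and slide 2 (squares), and for all except *Trib2* the limma difference with its standard error. *Trib2* lies between -4.77 and -1.76, and all other points lie between -0.40 and 0.68.

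Array quality, cell markers and the targeted gene touch these values as follows. Of the spots on an array, 49.2% to 57.4% were well above background, and the second Meis1-deficient array was the dimmest, with a 75th percentile of signal of 90.3 against 147 to 154 on the others. Across probes it correlated with the other arrays at 0.891 to 0.916, whereas those correlated with each other at 0.956 to 0.967. The 7 LSK cell markers were well above background on all 4 arrays, with summed signals of 129.7 to 165 times the 75th percentile. *Meis1* itself, at A_52_P670612, had log2 levels of 0.25 and 0.22 in Meis1-deficient cells against 1.02 and 1.45 in controls (difference -0.997, SE 0.44, limma adjusted p = 0.983). Where this probe lies relative to exon 8 was not analysed here, so it does not check the deletion. The 6 markers of maturing neutrophils with a probe summed to 37.0 and 4.296 times the 75th percentile in Meis1-deficient cells against 75.6 and 3.098 in controls, and were all well above background on slide 1 and 3 of 6 on slide 2. The macrophage marker sum was likewise higher on slide 1, with 7.45 in Meis1-deficient and 5.69 in control cells, than on slide 2, with 3.02 and 2.70. The erythroid marker sum was 98.5 and 246 in Meis1-deficient cells against 88.3 and 27.8 in controls, most of it *Hbb-b1* on every array, whereas the erythroid enzyme gene *Car1* differed by -1.66 on slide 1 and -1.89 on slide 2 and met the criteria with a slide term in the fit. The sum of B and plasma cell markers was 4.36 and 22.7 against 23.9 and 12.4. The T cell marker sum was 0.306 and 0.329 in Meis1-deficient cells against 0.487 and 0.556 in controls. Of the markers of these cells, 4 of 5 for macrophages, 3 to 5 of 7 for B and plasma cells and 0 to 3 of 5 for T cells were well above background on an array. *Cd3e*, *Cd3g*, *Pax5* and *C1qa* were not so on any array, while *C1qb*, *Cd79b* and *Igj* were so on all 4. The part of these cells in the genotype differences was not tested. In RNA from pooled cells, fewer cells of a type and less RNA per cell cannot be told apart.

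Some Tribbles and C/EBP genes differed more between slides than between genotypes. *Trib1* was higher on slide 1 than on slide 2 by 0.92 in Meis1-deficient cells and by 1.06 in controls on the log2 scale. *Cebpb* was higher on slide 1 by 0.56 and 1.16, and *Cebpd* by 0.46 and 1.196. All of these gaps, each between single arrays, exceeded the difference between genotype means of the same gene, and the neutrophil marker sum moved the same way. Between single arrays, *Cebpd* differed by genotype by -0.065 on slide 1 and 0.68 on slide 2. The latter was above its slide gap of 0.46 in Meis1-deficient cells. *Cebpa* had no such pattern, with -0.32 in Meis1-deficient cells and 0.40 in controls. At 2 of its probes *Cebpg* was lower on slide 1 in both genotypes, with slide 1 minus slide 2 at -0.64 and -0.23 for A_52_P121675 and at -0.16 and -0.14 for A_52_P438082, and for A_51_P521216 it was -0.63 in Meis1-deficient cells and 0.079 in controls. The lineage markers gated out in the sort included CD11b and Gr-1, which maturing neutrophils carry. Slide and pool cannot be told apart, and the part of neutrophil RNA in the values of *Trib1*, *Cebpb* and *Cebpd* was not tested.

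**Figure D4:**
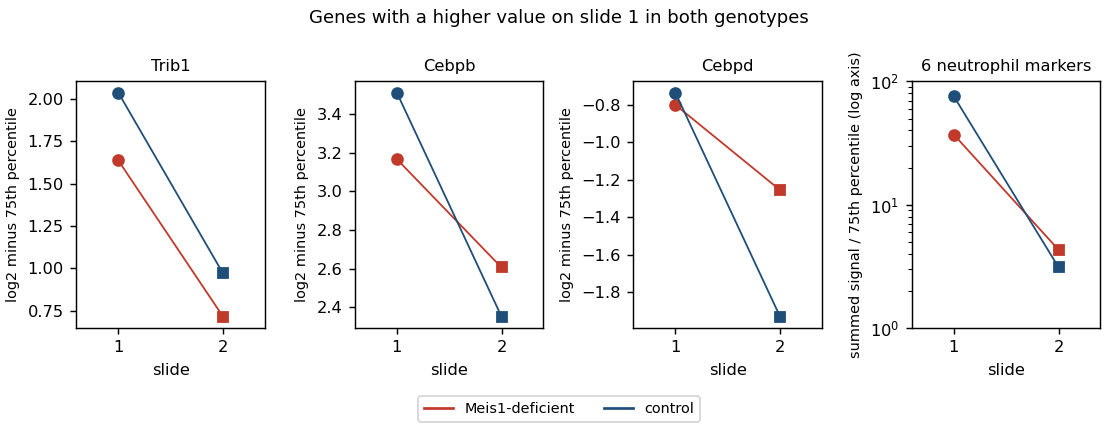
Log2 values of *Trib1*, *Cebpb* and *Cebpd*, chosen after their values were seen, and the summed signal of 6 maturing neutrophil markers relative to the 75th percentile of the array (log axis), on slide 1 and slide 2 in Meis1-deficient (red) and control (blue) cells. Each was higher on slide 1 in both genotypes, and the marker sum was 37.0 and 75.6 on slide 1 against 4.296 and 3.098 on slide 2.

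Genes that act with these families were described through 4 lists, each gene by the probe with its highest mean. Tribbles partners are the COP1 ligase components and the kinases, enzymes and factors that Tribbles proteins are known to bind or control. All 10 were well above background on every array, 4 were higher and 6 lower in Meis1-deficient cells, and 0 met the criteria. *Cop1*, listed as *Rfwd2* on the array, had log2 levels of 4.27 and 4.71 in Meis1-deficient cells against 4.21 and 3.88 in controls, a difference of 0.45 (standard error 0.45). *Det1*, which joins COP1 in a ligase complex, differed by 0.59 and *Acaca*, an acetyl-CoA carboxylase that Trib3 brings to COP1, by 0.49. Without scaling between arrays the differences of *Cop1*, *Det1* and *Acaca* were 0.072, 0.21 and 0.11. With 1 array left out *Cop1* ranged from 0.23 to 0.67, *Acaca* from 0.28 to 0.70 and *Det1* from -0.044 to 1.23. The median difference of the list was -0.013, against 0.082 over all tested probes.

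Of 18 myeloid genes that C/EBP factors are known to switch on, 14 were tested, with 11 lower and 3 higher in Meis1-deficient cells, while 43.7% of all tested probes were lower. Of these genes 4 (*Csf1r*, *Csf2ra*, *Il6ra* and *Cd14*) passed the filter only through the control arrays, and of the other 10, 7 were lower and 3 higher. The median difference over all 14 was -0.30, and it was -0.20 on slide 1 and -0.33 on slide 2. These medians include those 4 genes, none of them well above background on the second Meis1-deficient array. Nothing is read from the medians for that reason. *Elane*, the gene for neutrophil elastase, was the 1 gene of the list that met the criteria. Its log2 value was -2.56 and -2.30 in Meis1-deficient cells against -0.87 and -0.84 in controls (A_51_P144551, chromosome 10, 79350763 to 79350822). The genotypes did not overlap, and the difference was -1.57 (SE 0.42, limma adjusted p = 0.983), with -1.69 on slide 1 and -1.46 on slide 2. It was negative in the 9 alternatives that could move it. It missed the criteria in 6 of all 13, among them normexp background correction, where it was -0.50, and the fits without Meis1-deficient replicate 1 and without either control array. *Csf2ra*, a chain of the GM-CSF receptor, and *Il6ra*, the interleukin-6 receptor, had measured differences of -1.28 and -0.95 that did not meet the criteria. Their signals on the second Meis1-deficient array, 4.37 and 5.14, were not well above background. Without that array the differences were -0.18 and -0.044, and without the first Meis1-deficient array, against the undetected signals alone, they were -2.39 and -1.85. *Ngp*, *S100a8* and *S100a9*, the 3 tested neutrophil markers, are also in this list, and their part in its median was not tested. The 3 higher genes were *Ctsg*, *Mpo* and *Lyz2*, at 0.92, 0.56 and 0.31. *Mpo*, the gene for myeloperoxidase, had 6.87 and 6.36 in Meis1-deficient cells against 6.56 and 5.55 in controls. *Ctsg* differed by -0.002 on slide 1 and 1.84 on slide 2, and *Prtn3* differed by -0.22 over both slides.

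Of 14 amino acid and endoplasmic reticulum stress genes around *Trib3*, 12 were tested, with 9 lower and 3 higher and a median difference of -0.17. Over all tested probes 43.7% were lower and the median was 0.082. Without *Ddit3*, which was tested only through the control arrays, 8 were lower and 3 higher. The median was -0.35 on slide 1 and 0.19 on slide 2, and 0 genes met the criteria. *Ddit3* encodes CHOP, a C/EBP family member under another name and a known activator of *Trib3*. Its log2 value was -2.41 and -4.31 in Meis1-deficient cells against -1.21 and -2.19 in controls, and on the second Meis1-deficient array its signal of 4.55 was not well above background. The difference was -1.66 (SE 0.74, limma adjusted p = 0.983), and with a slide term in the fit *Ddit3* met the criteria (SE 0.49, limma adjusted p = 0.448). Like *Trib2*, it passed the filter for testing only through the control arrays, so nothing is read from that call. It was -1.21 on slide 1, where both signals were well above background, and -2.12 on slide 2. Fits without a slide term gave -0.72 when the second Meis1-deficient array was left out and -2.61 when the first was left out, and normexp gave -0.18. *Atf4*, which acts upstream of both *Ddit3* and *Trib3*, had 2.29 and 2.14 in Meis1-deficient cells against 2.53 and 2.32 in controls. *Atf3* differed by -0.82 and *Phgdh*, an enzyme of serine synthesis, by 0.78, both with standard errors near the difference (0.95 and 0.71), and *Phgdh* was at 1.77 without the first Meis1-deficient array.

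Of 12 transcription factors of early blood cells, 11 were tested, with 5 higher and 6 lower, a median difference of -0.094 (0.082 over all tested probes) and 0 that met the criteria. Beside *Meis1*, the largest differences were -0.89 at *Klf4*, a monocyte-promoting factor with a standard error of 1.11, and 0.66 at *Spi1*, which encodes PU.1. *Spi1* had log2 levels of 0.16 and 0.79 in Meis1-deficient cells against -0.095 and -0.28 in controls, so that its genotypes did not overlap, with a standard error of 0.46. Its difference was 0.28 without scaling, and 0.34 when the second Meis1-deficient array was left out. *Hoxa9*, which encodes a known partner of Meis1, differed by 0.053.

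**Figure D5:**
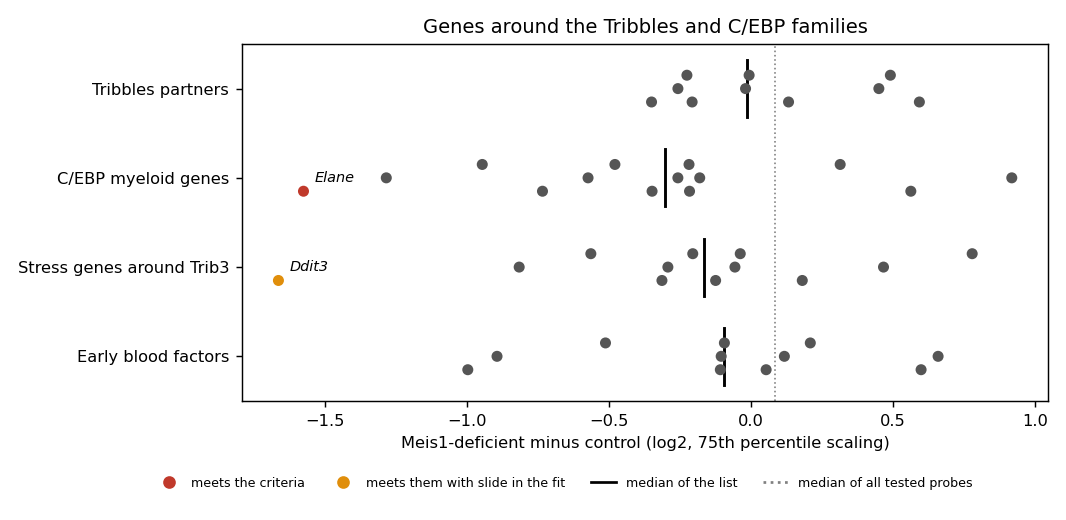
Meis1-deficient minus control on the log2 scale (x axis) for every tested gene of the 4 lists, 1 point a gene, with the median of each list (black) and the median of 0.082 over all tested probes (dotted). *Elane* (red) met the criteria and *Ddit3* (orange), tested through the control arrays alone, met them once the slide was added to the fit, while the list medians lie between -0.30 and -0.013. Those of the myeloid and stress lists include genes tested through the control arrays alone.

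The genes whose pattern over the 4 arrays was most like that of *Cebpa* (A_52_P168567) were found by Euclidean distance of log2 values, each taken relative to its control mean, among 19481 named probes. No such genes are given for *Trib2*, since its Meis1-deficient values were under the limit of detection. Nearest to *Cebpa* were *Cpne3*, *Esam*, *Socs4*, *Slmo2* and *Clcn3*, at distances of 0.0238 to 0.0520. *Esam*, an endothelial adhesion gene also known as a surface marker of HSCs, had 1.50 and 1.84 in Meis1-deficient cells against 1.59 and 1.17 in controls. With 4 arrays, many probes have a similar pattern, and these names are a description.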

How the data were processed

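RNA from sorted LSK cells (10 ng per pool) was amplified and Cy3-labeled for 4 single-color arrays of 60-base probes, 2 per genotype. Groups and replicate numbers were taken from the sample labels. The authors deposited the spot intensity of each array as written by Feature Extraction (9.5.3.1 in the file header, 9.1 in the submitters' processing notes), which subtracts background and detrends within the array, and a table of the series with the same intensity values and no scaling between arrays. The authors' files also hold, for each spot, the p-value of its signal against background and a flag for spots well above background, both used as deposited. Positions are those of the array design (mm9). Exon and UTR annotation on that build was not used here. By RefSeq accession, 12 of 13 probes matched a symbol in a GRCm38.p6 table, and all 12 symbols were those of the design.

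Control and outlier spots were left out, and the 75th percentile of each array was subtracted from the log2 signal, since the deposited values are not on a log2 scale. A probe entered the test if 1 or both genotypes had it well above background on each of their arrays (22007 of 41174). Genotypes were compared with limma 3.58.1 in R 4.3.3 (lmFit and eBayes), and p-values were adjusted by Benjamini-Hochberg over all tested probes. The fit was tested on simulated data. Alternatives changed the scaling, background correction, filter, test, slide term and the arrays included. Pools are the replicates, and 2 per genotype together with signal over background limit the precision.

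The replicate number is the slide, as the file headers record, so it marks a batch that the genotypes share. The departures of arrays on the same slide from the mean of their genotype had a correlation of 0.266. Named genes were every probe of the 8 members, the genes of 4 lists that met the criteria and the 3 largest differences of each list. *Csf1r* and *Cd14* are named for the filter. *Mpo*, *Ctsg*, *Lyz2*, *Prtn3*, *Atf4*, *Hoxa9*, *Car1*, *Hbb-b1* and the other cell markers named were picked after their values were seen. The members and lists were chosen with earlier results of these data known.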

Additional observations from a re-analysis of the deposited data

How the results depend on the processing

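The number of member probes meeting the criteria fell from 2 to 1 after quantile normalization and to 0 after normexp background correction, when only probes well above background on all 4 arrays were tested (which leaves *Trib2* out) and by the methods' t-test. With 1 array left out it was 1 to 2, and with the slide as a replicate block it was 2. Over all probes the criteria called 132 lower and 30 higher, against 308 and 130 with the block, 45 and 2 after normexp, 23 and 7 by the t-test and up to 1705 and 510 with an array left out (without Meis1-deficient replicate 1, where 10.1% of all tested probes were called, *Ddit3*, *Csf2ra*, *Il6ra* and *Phgdh* among them, and the lone array was assumed to vary like the controls). An adjusted p under 0.05 was reached by 0 probes in the limma fit (618 had an unadjusted p under 0.05) and by 50 with the block (1337).

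For the 7 other tested probes, none was called in 91 comparisons. In 4 of the 13 alternatives the difference is the same by construction, and of the 63 other comparisons 49 kept their direction and 14 turned. Without scaling, which was added after the data were seen, *Cebpa* was at -0.069, *Cebpd* at -0.072 and *Cebpg* at -0.23 (A_52_P121675) and -0.18 (A_51_P521216). *Cebpb* was at 0.036 with median scaling, and *Cebpg* A_52_P121675 at -0.013 with quantile normalization and -0.031 with normexp. With 1 array left out, *Trib1* ranged from -0.86 to 0.21, *Cebpb* from -0.63 to 0.54, *Cebpd* from -0.29 to 0.90, *Cebpg* A_52_P121675 from -0.17 to 0.46 and A_51_P521216 from -0.11 to 0.51. *Cebpa* kept its sign, at 0.11 to 0.51. These fits had no slide term, so leaving out 1 array also unbalanced the slides between genotypes. The slide gap then enters the genotype difference. Within slides, *Trib1* differed by -0.40 on slide 1 and -0.25 on slide 2. Among list genes, *Il6ra* turned to 0.051 with normexp, and left-out arrays gave *Det1* -0.044 to 1.23, *Atf3* -2.01 to 0.38, *Phgdh* -0.21 to 1.77 and *Klf4* -2.19 to 0.40. Within slides, *Klf4* differed by -0.94 on slide 1 and -0.85 on slide 2. The causes were not tested.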
